A study of Homo sapiens with 37 samples.

Results

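RNA near the translation initiation factor eIF4A was compared with total RNA in the human embryonic kidney line HEK293T before any stress. The comparison rests on 4 of the 37 libraries of the study: 2 T0 pulldowns and 2 T0 inputs, chosen by their titles. All 4 came from cells that carried the construct APEX-eIF4A, and their stress label reads Naive. The RNA was tagged with 500 µM biotin-phenol over 30 min and 1 min of 1 mM H2O2 before TRIzol extraction. The pulldown is the RNA bound to streptavidin beads, and the input is the total RNA. They belong to a stress set of 17 libraries with the same construct, whose other pulldowns and inputs are heat shock at T4 and T20 (unit of T not given), hippuristanol, an inhibitor of eIF4A, and DMSO. A separate naive set of 20 unstressed libraries holds APEX-eIF4A again, APEX-GFP and 3 other constructs. The sources used here do not give the promoter of the construct or whether the cells were 1 clone. Nor do they say that replicates were grown separately, so the spread behind each p-value may be technical.

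eIF4A is the RNA helicase of the cap-binding complex eIF4F. It unwinds structure in the leader of an mRNA so that the small ribosomal subunit can load and scan. APEX is an engineered peroxidase that turns biotin-phenol into short-lived radicals, which tag molecules close to the fusion protein. Here an enriched RNA is one with a larger share of the pulldown than of the input. All libraries of the study came from labelled cells, so tagged RNA cannot be told apart from untagged RNA that bound to the beads. The files name RNAs only by versioned Ensembl gene IDs, and no table at hand pairs these with gene names. RNAs are therefore described below by ID, level and behaviour across libraries, and the markers of the cell line could not be checked.

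The T0 pulldowns were shallow. They held 770084 and 707356 counts, against 6721920 and 5003887 counts in the T0 inputs. The 7 other pulldowns of the stress set held 843304 to 1221213 counts, so none of them was as small as a T0 pulldown. A count was seen for 12080 and 11574 IDs in the T0 pulldowns and for 24568 and 20706 IDs in the T0 inputs. At an equal depth of 700000 counts the pulldowns still listed fewer IDs, 11559 to 11978 in T0 pulldowns against 16597 to 18138 in T0 inputs.

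The T0 pulldowns were also concentrated on few RNAs. The most abundant 85 IDs in pulldown replicate 1 and 10 IDs in pulldown replicate 2 held 50% of all counts, against 983 and 256 IDs in the inputs. The 10 most abundant IDs took 38.0% and 51.7% of the pulldown counts and 9.21% and 22.0% of the input counts. The 7 other pulldowns of the stress set needed 104 to 371 IDs for 50% of their counts, more than either T0 pulldown, while their 10 most abundant IDs took 28% to 39.2%. By that share T0 pulldown replicate 2 lay above them all and replicate 1 within their range. T0 input replicate 2 stood apart from the 6 other inputs of the stress set, which needed 721 to 1294 IDs for 50% of their counts and whose 10 most abundant IDs took 7.39% to 14.7%. The curves of cumulative counts place T0 pulldown replicate 2 well above replicate 1, and T0 input replicate 2 above input replicate 1. Replicates in both fractions thus differed in composition, not in depth alone.

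**Figure D1:**
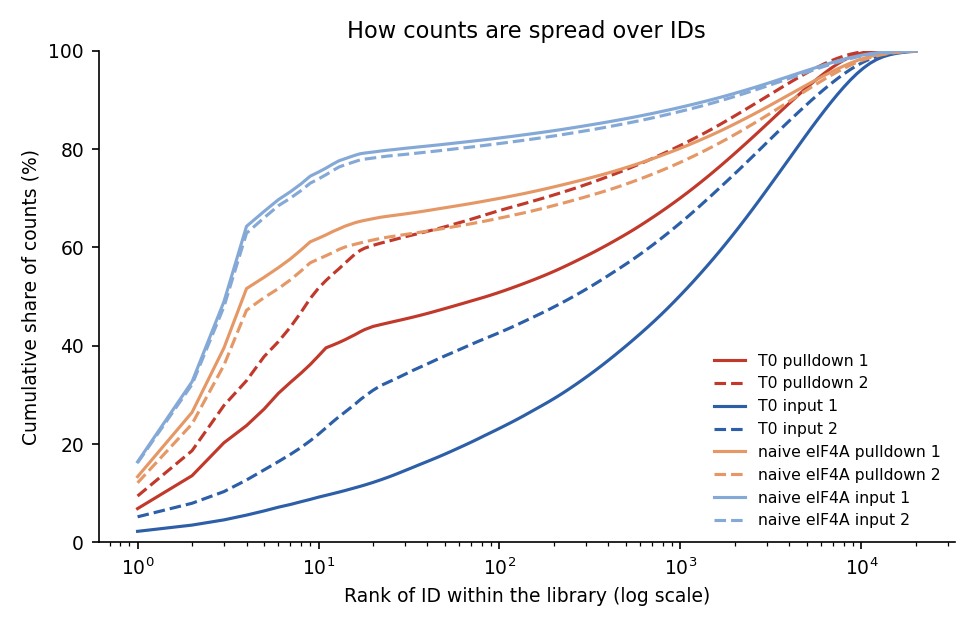
Cumulative share of counts (percent, vertical) against the rank of an ID within its library (log scale), one line for each library of T0 pulldown, T0 input, naive eIF4A pulldown and naive eIF4A input; replicate 2 is dashed. In T0 pulldowns 85 and 10 IDs reach 50% of the counts, against 983 and 256 in T0 inputs, and in all 4 naive libraries 4 to 6 IDs do.

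Of 16678 IDs tested with edgeR's quasi-likelihood test, 60 differed between T0 pulldown and T0 input at an adjusted p under 0.05, which is 0.36% of those tested. They were 50 higher in the pulldown (0.3%) and 10 lower (0.06%). At an unadjusted p under 0.05 there were 1789 IDs (10.7%). All 60 had both pulldowns on the same side of both inputs. Among all tested IDs both pulldowns lay above both inputs for 7.45% and below both for 39.6%, and the median log2 fold change was -0.55. Counts are shares of a library, so more of one RNA and less of the others cannot be told apart. The split depended on the scaling. When library size replaced the TMM factors, 51 IDs were higher and 137 lower, around a median of -1.05. With DESeq2 152 of the 10858 IDs with an adjusted p were higher and 115 lower, and the median over all IDs fitted was -0.13. Leaving out a single T0 library moved the counts as well, and most of the 10 lower IDs then lost their call. Without T0 input replicate 2 there were 37 calls and none lower, without T0 input replicate 1 27 higher, and without T0 pulldown replicate 2 33 higher and 19 lower.

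After TMM scaling, most RNAs with enough counts to be measured lay near a log2 fold change of 0. TMM sets its level of no change from the bulk of IDs, so this position depended on the scaling. With library size the median over all tested IDs was -1.05, against -0.55 with TMM. Among the 1017 IDs with a mean of at least 7 log2 CPM (CPM, counts scaled to library size and TMM factor) over the 4 libraries, 82.8% had a log2 fold change between -1 and 1, and the quartiles were -0.68 and 0.12. In that range 30 IDs were called higher and 1 lower. At the highest levels, 9 log2 CPM or more, 14 of 142 IDs were called higher and 1 lower. Below 3 log2 CPM only 6 of 7599 IDs were called.

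**Figure D2:**
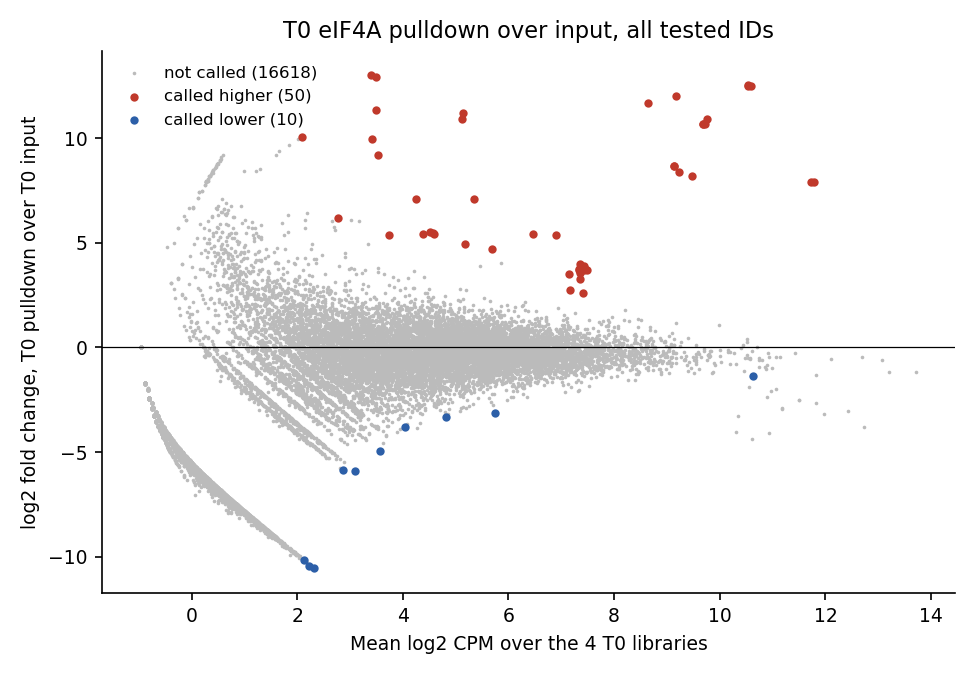
Log2 fold change of T0 pulldown over T0 input (vertical) against the mean log2 CPM over the 4 T0 libraries (horizontal) for all 16678 tested IDs, with the 50 called higher in red and the 10 called lower in blue. The IDs called higher form a detached group far above the cloud at middle and high levels; the streak at the lower left holds IDs with no count in either pulldown.

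Replicate pulldowns resembled each other less than replicate inputs did, except at high levels. Over all tested IDs, log2 CPM correlated at 0.649 between the T0 pulldowns and at 0.943 between the T0 inputs (16678 IDs, which are not independent replicates). For IDs with a mean between 1 and 3 log2 CPM, the difference between replicates had an SD of 3.71 in pulldowns and 0.85 in inputs. Between 7 and 9 log2 CPM the SDs were 0.78 in pulldowns and 0.63 in inputs, and from 9 on they were 0.76 and 0.87. The spread between replicates was thus of similar size in both fractions for abundant RNAs. Of the tested IDs, 3611 had no count in either pulldown.

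**Figure D3:**
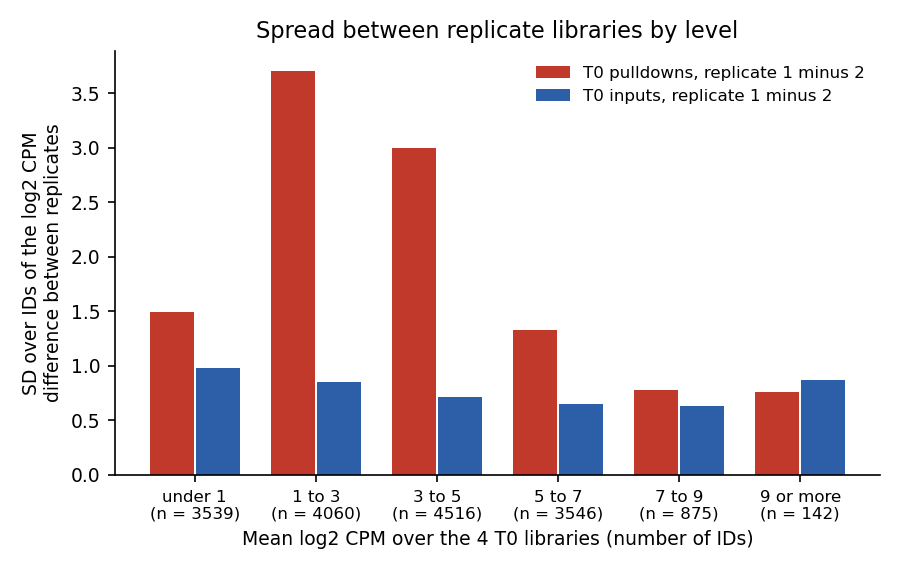
SD over IDs of the log2 CPM difference between replicates 1 and 2 (vertical) in T0 pulldowns and T0 inputs, in 6 classes of mean log2 CPM (horizontal, with the number of IDs). The pulldown bars are tallest from 1 to 5 log2 CPM, where the first class reaches 3.71 against 0.85 in inputs, and meet the input bars from 7 on.

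The IDs called higher fell into sets with near-equal counts and single IDs. In 5 such sets the members' counts lay within 0.25 of another member's, on the log2(count + 1) scale, in each of the 17 libraries of the stress set. Together these sets held 20 of the 50 IDs. Counted once for each set, the 60 calls came to 45, of which 35 were higher and 10 lower. The sources used here do not say how reads matching several genes were counted, so members of a set cannot be taken as separate RNAs. The same holds for 4 IDs described below, whose counts were close but outside this rule and which were counted singly.

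The leading set, of 3 IDs, alone supplied 20.3% and 27.8% of the counts of the T0 pulldowns and 0.00595% and 0.00606% of those of the T0 inputs. Each of its IDs had on average 52021 and 65656 counts in the pulldowns, against 133 and 101 in the inputs, with log2 fold changes of 12.49 to 12.53. In the inputs its IDs thus stood near the medians of all tested IDs, 139 and 65 counts. In the pulldowns they stood far above the medians of 7 and 4. A second set of 3 IDs averaged 13813 and 21255 counts in the pulldowns and 113 and 129 in the inputs, a log2 fold change of 10.65 to 10.68. A pair averaged 25258 and 35168 counts in the pulldowns against 940 and 1652 in the inputs (7.91 to 7.92), and another pair 4174 and 7875 against 154 and 183 (8.65 to 8.67). In all 4 of these sets pulldown replicate 2 held the higher count although its library was the smaller. The last and largest set also held more counts in pulldown replicate 2 but differed in size of change. Its 10 IDs averaged 189 and 477 counts in the pulldowns and 273 and 311 in the inputs. Its log2 fold changes were 3.57 to 3.88, the smallest of the 5 sets.

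Together the 50 IDs called higher took 42.8% and 59.2% of the T0 pulldown counts and 0.141% and 0.189% of the T0 input counts. These values chose the IDs and are given as a description. The sets of near-equal counts made up most of this, 33.5% and 49.7% of the pulldown counts, and the 30 single IDs added 9.29% and 9.46%. The difference between the T0 pulldowns in this summed share thus lay mostly in the sets, whereas the single IDs summed to about the same share. Members could still differ, since by scaled CPM 15 of the 30 single IDs were higher in replicate 1. In the 7 other pulldowns of the stress set, which did not choose the IDs, the 50 IDs took 31.1% to 42.3% of counts, and in its 6 other inputs 0.121% to 0.188%. Every other pulldown of the stress set thus carried a smaller share than either T0 pulldown, while the inputs overlapped; choosing the IDs at T0 favours the T0 share.

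A pair of IDs stands for the single IDs that were higher, picked after their values were seen as the largest increases with at least 10 counts in each T0 library. ENSG00000275110.1 had 17250 and 19930 counts in T0 pulldowns, against 57 and 47 counts in T0 inputs. It averaged 36709 ± 15432 CPM in T0 pulldowns and 9.07 ± 2.77 CPM in T0 inputs (SD, n = 2 each), a log2 fold change of 11.99 ± 0.44 (SE; edgeR adjusted p = 2.15e-14). The pulldowns differed from each other by less than a factor of 2, far below the distance to the inputs. ENSG00000211459.2 had 12582 and 11019 counts in T0 pulldowns, against 57 and 27 counts in T0 inputs. Its means were 22573 ± 5312 CPM in T0 pulldowns and 6.73 ± 0.55 CPM in T0 inputs, a log2 fold change of 11.70 ± 0.57 (edgeR adjusted p = 5.14e-12). Both stayed called under all 13 alternative settings.

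Another 3 of the IDs called higher had no count in either T0 input. They held 38 to 256 counts over both T0 pulldowns, so against a floor of 3 counts over the inputs they were 143-fold to 963-fold higher. That floor covers counting error alone, and replicates differed by more than that, so these folds are not firm bounds. The 7 single IDs with a log2 fold change under 5 had 150 to 398 and 54 to 462 counts in the pulldowns, against 79 to 753 and 16 to 289 counts in the inputs. Their ranges of raw counts overlapped between fractions, and the difference appears once counts are scaled to the depth of the libraries.

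The 10 IDs called lower were of another kind. They took 0.0896% and 0.0647% of the T0 pulldown counts, against 0.270% and 0.360% of the T0 input counts, so the decrease involved little RNA. Of the 10, 3 had no count in either pulldown and 6 had 1 to 19 counts over both pulldowns, against 687 to 1829 counts over both inputs. ENSG00000063177.11 was the only one with at least 10 counts in each T0 library. It had 674 and 435 counts in T0 pulldowns, against 13508 and 15082 counts in T0 inputs. After TMM scaling the pulldown level was close in both replicates, at 1008 and 1039 CPM. The inputs were apart, at 1687 and 3540 CPM. As CPM of the library total the pulldowns stood at 875 and 615 and the inputs at 2010 and 3014, so the closeness depended on the scaling. The log2 fold change was -1.35 ± 0.29 (edgeR adjusted p = 0.0394). Without T0 input replicate 2, the higher one, it was -0.72 (edgeR adjusted p = 0.854), and the call was lost in 8 of 13 alternative settings.

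ENSG00000055950.15 had the lowest fitted fold change of the comparison, with 0 and 0 counts in T0 pulldowns against 324 and 239 counts in T0 inputs. With a floor of 3 counts over both pulldowns, 2.76 CPM, against 45.9 CPM in the inputs, it was 16.6-fold lower (edgeR adjusted p = 0.0266). The floor covers counting error alone, and replicates differed by more than that, so this fold is not a firm bound. The 7 other pulldowns of the stress set each had 17 to 70 counts of this ID. The absence was therefore seen in the T0 pulldowns and in none of the others, and its call was lost in 7 of 13 alternative settings. The difference of its pulldown-over-input change between T0 and hippuristanol gave an edgeR adjusted p = 0.99983, and that between T0 and T20 one of 0.676, although the unadjusted values were 0.000485 and 0.000176.

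**Figure D4:**
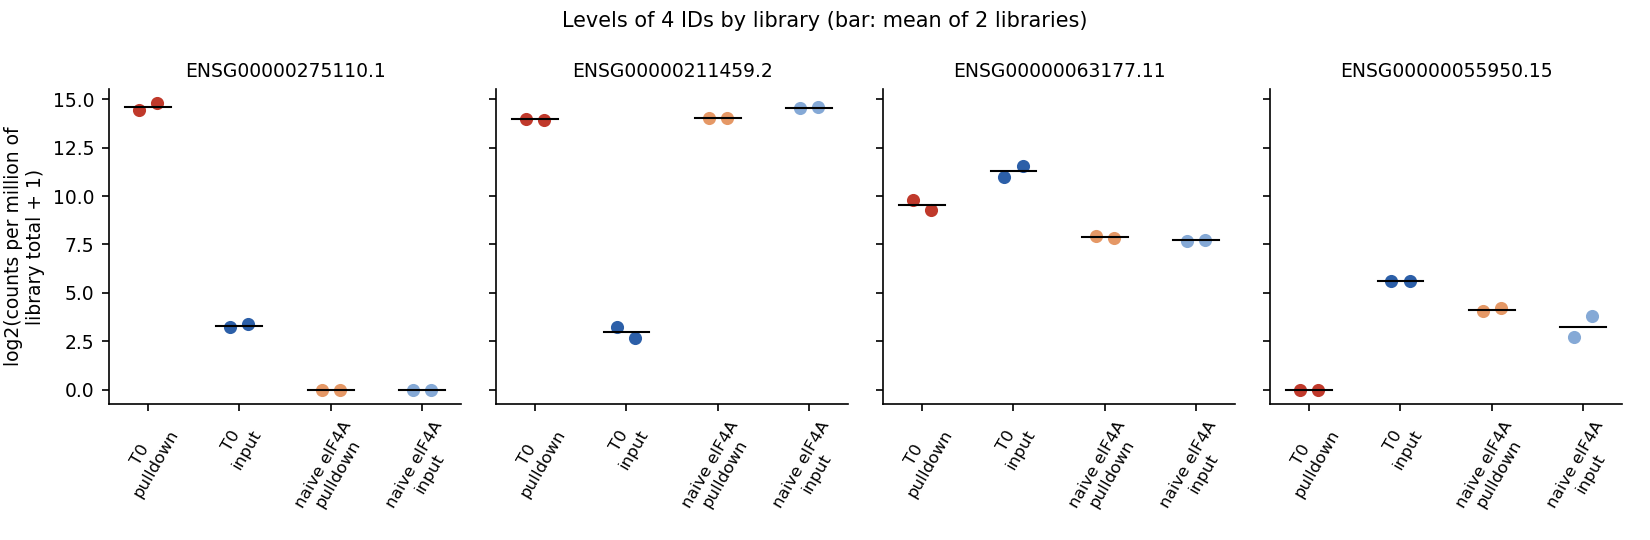
Log2(CPM of the library total + 1) (vertical) of 4 IDs in each library of T0 pulldown, T0 input, naive eIF4A pulldown and naive eIF4A input; each point is a library and each bar the mean of 2. ENSG00000275110.1 is high in T0 pulldowns only, ENSG00000211459.2 is low in T0 inputs only, ENSG00000063177.11 is highest in T0 inputs, and ENSG00000055950.15 is at 0 in both T0 pulldowns.

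Absence from a pulldown was common at T0 and mostly not shared by the replicates. Of 6518 IDs with at least 100 counts in each T0 input, 304 had no count in pulldown replicate 1 and 333 none in replicate 2, but 52 had none in both (0.798%). The share was 0.520% of 7498 IDs at T20 and 0.247% of 9316 IDs with hippuristanol, whose pulldowns were deeper. Of the 52 IDs, 47 had a count in at least 4 of the 7 other pulldowns of the stress set and 13 had one in all 7. Only 3 of the 52 passed the test. The median of the 52 was 345 counts over both T0 inputs.

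An abundant pair of IDs was scarcer in the pulldowns without being called. Its members, which had near-equal counts, averaged 420 and 1123 counts in T0 pulldowns and 20698 and 68946 counts in T0 inputs. These made up 0.109% and 0.318% of the pulldown counts and 0.616% and 2.76% of the input counts. The log2 fold change was -2.50 (edgeR adjusted p = 0.432). By these shares both pulldowns lay below both inputs, whereas after TMM scaling pulldown replicate 2 lay above input replicate 1.

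The same bait without stress was also profiled in the naive set, which allows the T0 enrichment to be read in libraries that did not choose the IDs. The sets were normalised and tested separately, so values stand side by side and the difference between them was not tested. In the naive set 12427 IDs were tested for APEX-eIF4A, and 271 differed (2.18%), 144 higher in the pulldown (1.16%) and 127 lower (1.02%). Of the 50 IDs higher at T0, 48 were tested there. The naive eIF4A pulldown was higher for 9 of the 48 by sign, and 3 were called higher while 28 were called lower. The median log2 fold change was 6.62 at T0 over the 50 and -1.12 in the naive set over the 48. Both values describe the lists, and the first was fixed by the choice of IDs. The naive APEX-GFP pulldown, a fusion without an initiation factor, called 4 of these IDs higher and 18 lower (502 of all 12427 tested were called for GFP, 4.04%, with 1.95% higher and 2.09% lower). Of the 10 IDs lower at T0, 8 had the same sign in the naive eIF4A set, with a median of -0.16, and 1 was called lower. Over all 12173 IDs tested in both sets, 6454 had the same sign. The ID called lower was ENSG00000063177.11, at -0.60 (edgeR adjusted p = 0.0429). Every naive construct had it called lower, APEX-GFP included (-1.04, edgeR adjusted p = 0.000318). As CPM of the library total, its naive eIF4A pulldowns stood at 247 and 230 and its inputs at 207 and 210. This direction thus depended on the scaling.

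**Figure D5:**
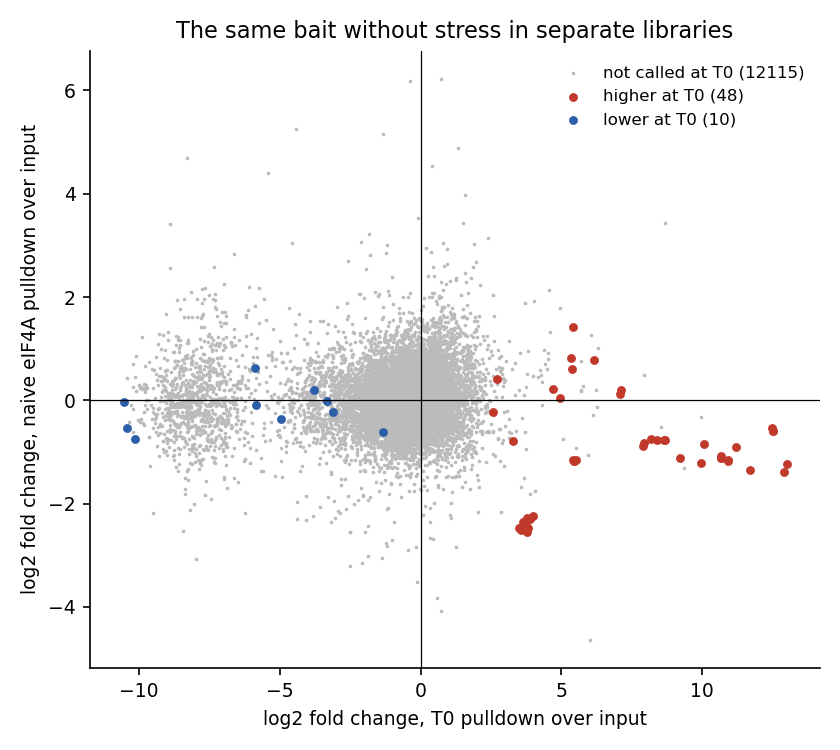
Log2 fold change of naive eIF4A pulldown over input (vertical) against that of T0 pulldown over input (horizontal) for the 12173 IDs tested in both sets, with IDs called higher at T0 in red and lower in blue. Most of the 48 red points lie below the horizontal line of no change, with a median of -1.12 in the naive set.

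The levels show where the sets part. The 50 IDs took 42.8% and 59.2% of T0 pulldown counts and 65.1% and 60.7% of naive eIF4A pulldown counts. Different members made up these sums. The sets of near-equal counts took 33.5% and 49.7% at T0, against 8.06% to 8.56% in naive eIF4A pulldowns. The single IDs took 9.29% and 9.46% at T0, against 52.6% to 56.6%. Most of that naive share came from 4 single IDs described below, which held 51.6% and 47.2% of naive eIF4A pulldown counts. In inputs the 50 IDs took 0.141% and 0.189% at T0, against 78.5% and 77.1% in the naive eIF4A inputs. For 36 of the 50 IDs both naive inputs lay above both T0 inputs as a share of the library total, and for 13 both lay below; over all 16678 IDs tested at T0 this held for 210 and 12359. Both T0 pulldowns lay above both naive eIF4A pulldowns for 31 of the 50 and below for 13, against 3054 and 5061 of all tested. The median ID stood at 473 CPM of the library total in T0 pulldowns and 20.8 in T0 inputs, against 446 in naive eIF4A pulldowns and 279 in naive eIF4A inputs. The close medians of the pulldowns hide a split: IDs in sets stood at 4385 in T0 pulldowns, against 302 in naive eIF4A pulldowns, and single IDs at 254 against 446. Whether total RNA was prepared in the same way for both sets is not given in the sources used here, and its part in the result was not tested.

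Individual IDs followed this pattern in different ways. ENSG00000211459.2 stood at 16339 and 15578 CPM of the library total in T0 pulldowns and 8.48 and 5.40 in T0 inputs. In the naive set it stood at 16660 and 16713 in eIF4A pulldowns and 23919 and 24592 in eIF4A inputs. On this scale its pulldown level was close to the same in both sets, and the larger gap lay between the inputs. The 7 other pulldowns of the stress set ranged from 7351 to 18263. After TMM scaling within each set, the pulldowns stood at 18816 and 26329 CPM at T0 and at 13811.5 and 12204.4 CPM in the naive eIF4A set. Its fold change was -1.34 ± 0.16 in the naive set (edgeR adjusted p = 1.88e-06). In the naive set all 5 constructs had it lower in the pulldown, by log2 fold changes between -1.41 and -1.04. ENSG00000275110.1 did the opposite and was missing from the naive set, where it had 1 count over all 20 libraries, while the 7 other pulldowns of the stress set held 15195 to 27849 counts of it. The leading set of 3 IDs took 5.56% and 5.42% of naive eIF4A pulldown counts and 4.78% and 4.59% of naive eIF4A input counts. The set of 10 IDs was scarce in the naive set, at 40 and 13.7 counts for each ID in the pulldowns and 39.6 and 75.9 in the inputs.

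A group of 4 IDs called higher at T0 dominated the naive libraries. They held 51.6% and 47.2% of all naive eIF4A pulldown counts and 64.3% and 62.9% of all naive eIF4A input counts. At T0 each of them had only 59 to 71 and 88 to 97 counts in the pulldowns, against 44 to 48 and 5 to 7 counts in the inputs. Their log2 fold changes were 5.40 to 5.51 at T0 (edgeR adjusted p of at most 0.0174) and -1.18 to -1.16 in the naive set. Their counts lay close together in each of these libraries, although the rule for sets left them as single IDs. They too cannot be taken as separate RNAs. Together they held 0.0344% and 0.0529% of T0 pulldown counts and 0.00271% and 0.0005% of T0 input counts. The same IDs thus ranged from a very small share of the T0 inputs to most of the counts in the naive inputs.

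Only 3 IDs were called higher in both sets (edgeR adjusted p of at most 0.0185 in the naive eIF4A set). Log2 fold changes are given with their SE. The first had 633 and 134 counts in T0 pulldowns against 167 and 38 in T0 inputs, with log2 fold changes of 5.40 ± 0.51 at T0 and 1.42 ± 0.17 in the naive eIF4A set. For the second the counts were 708 and 241 in T0 pulldowns against 213 and 51 in T0 inputs, with log2 fold changes of 5.39 ± 0.48 and 0.61 ± 0.14. The third had 105 and 11 counts in T0 pulldowns against 14 and 12 in T0 inputs, with log2 fold changes of 5.35 ± 0.92 and 0.81 ± 0.17. All 3 were also higher in the naive APEX-GFP pulldown, by 1.56, 0.73 and 0.96, so they were enriched with a bait that has no initiation factor.

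The IDs called in the naive set went both ways at T0. Of the 144 IDs called higher in the naive eIF4A pulldown, 91 (63.2%) had a T0 log2 fold change above 0, with a median of 0.26. Of the 126 called lower and tested at T0, 53 (42.1%) lay above 0, with a median of -0.28. Among all 12173 IDs tested in both sets, 3987 (32.8%) lay above 0, with a median of -0.45. The second list holds 28 of the IDs called higher at T0, and both lists had medians above that of all IDs. Across the 4546 of these IDs with a mean of at least 5 log2 CPM, fold changes at T0 and in the naive set correlated with a Pearson's r of 0.051 and a Spearman's rho of 0.184, over IDs that share libraries and depth.

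Within the stress set the T0 increases recurred under the other conditions, in pulldowns and inputs of their own. Heat shock at T20 called 62 IDs (0.372%), 42 higher in the pulldown (0.252%) and 20 lower (0.12%). Of the higher IDs 32 were shared with T0, which is 64.0% of the T0 list and 76.2% of the T20 list. Hippuristanol called 42 IDs (0.252%), 41 higher (0.246%) and 1 lower (0.006%), and 34 of the higher IDs were shared, 68.0% of the T0 list and 82.9% of the hippuristanol list. Counted once for each set of near-equal counts, 26 and 28 were shared. All 50 IDs had a positive fold change in both, with medians of 6.62 at T0, 4.62 at T20 and 5.47 with hippuristanol. ENSG00000275110.1 had log2 fold changes of 11.99 at T0, 12.83 at T20 and 11.96 with hippuristanol. For ENSG00000211459.2 the change at T0 differed from that at T20 by 0.70 ± 0.55 (SE; edgeR adjusted p = 0.808) and from that with hippuristanol by 0.35 ± 0.54 (edgeR adjusted p = 0.99983).

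The decreases did not recur as calls. None of the 10 IDs lower at T0 was called lower at T20 or with hippuristanol, and their medians were -5.39 at T0, -0.15 at T20 and -0.16 with hippuristanol. ENSG00000063177.11 came closest, with log2 fold changes of -1.35 at T0, -1.23 at T20 (edgeR adjusted p = 0.0724) and -1.25 with hippuristanol (edgeR adjusted p = 0.0903). The difference between conditions was tested directly. With edgeR, T0 minus T20 in pulldown over input called 0 of 16678 IDs (0%), with 1226 (7.35%) at an unadjusted p under 0.05. DESeq2 made 82 calls for it. T0 minus hippuristanol also called 0 (0%), with 681 IDs (4.08%) at an unadjusted p under 0.05 and 3 calls by DESeq2. Both differences use the same T0 libraries.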

How the data were processed

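Counts were deposited as raw whole-number read counts for 60483 versioned Ensembl gene IDs. The submitters' processing notes name HISAT2, cutadapt, featureCounts and the build GRCh38; the sources used here do not give versions, the strand setting or the handling of reads matching several genes. Overlapping or near-identical genes are therefore uncertain, and amplified copies count as separate reads. Groups were taken from sample titles. The hippuristanol inputs carry a heat shock stress label and were grouped by title. One column name fits 2 samples: the stress table's was taken for the DMSO input, the naive table's for eIF4A input replicate 2.

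Total counts were 707356 to 770084 in T0 pulldowns and 5003887 to 6721920 in T0 inputs, so counting error is large for IDs with few pulldown counts. The 17 stress libraries were fitted together by edgeR 4.0.16 (R 4.3.3) with a mean for each group, after filterByExpr and TMM scaling, using glmQLFit (robust) and a 2-sided glmQLFTest, with Benjamini-Hochberg adjustment and calls at an adjusted p under 0.05. The 20 naive libraries were fitted separately in the same way. An SE is the log2 fold change over the root of its F value. A prior count of 2 entered log2 CPM. Replicates differed by more than sampling noise (chi-square per ID 16.7 between T0 pulldowns and 77.3 between T0 inputs) and were counted separately.

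Alternatives were library size, TMM without the 10 IDs with the most counts, DESeq2 1.42.0, limma 3.58.1 voom with a weight for each fraction, no count filter, a count minimum of 50, only the T0 libraries, a replicate block, each library left out, and, chosen after seeing the data, each set of near-equal counts kept once. The comparison, the lists and the tests were chosen with earlier results of these data known.

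The gene table for GRCh38.p14 matched 0 of the IDs, so 34 gene lists, the cell markers, the rule for named genes and sequences could not be used. In their place 4 IDs, picked with their values known, are printed: the 2 largest increases among calls outside sets of near-equal counts with at least 10 counts in each T0 library, the one decrease meeting that minimum, and the largest decrease. Sets of near-equal counts were sought among IDs with a mean of at least 20 counts.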

Additional observations from a re-analysis of the deposited data

Results flagged for a closer look

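ENSG00000211459.2 moved in opposite directions in the 2 sets of unstressed APEX-eIF4A libraries. At T0 both pulldowns lay above both inputs, with a log2 fold change of 11.70, while in the naive set both pulldowns lay below both inputs, with a log2 fold change of -1.34. The difference between the sets was not tested, because they were normalised separately.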

How the results depend on the processing

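The 60 calls at T0, 50 higher and 10 lower, depended on the scaling, the tool and the libraries. The cause of these moves was not tested. Library size in place of TMM gave 188 calls, 51 higher and 137 lower. The number of IDs tested was 16678 in the main fit and differed in some of the others. DESeq2 gave 267 calls among 10858 IDs with an adjusted p, 152 higher and 115 lower. Its calls were 3 for T0 minus hippuristanol and 82 for T0 minus T20, where edgeR called 0. Voom with a weight for each fraction gave 62 calls, 61 higher and 1 lower, and none of the 10 lower IDs of the main fit was called lower. Without a count filter there were 85 calls among 34804 IDs, 56 higher and 29 lower. Only the 4 T0 libraries gave 33 calls among 13141 IDs, all higher, and 0 lower. Each set of near-equal counts kept once, chosen after seeing the data, gave 38 calls among 16556 IDs, 32 higher and 6 lower. A replicate block on the 4 T0 libraries gave 100 calls among 13141 IDs, 70 higher and 30 lower. The deviations of same-numbered pulldowns and inputs correlated at 0.104 over 4563 IDs, and with 2 pairs and no label the numbers were not taken as a pairing. With 1 library left out there were 37 to 55 calls, 27 to 46 higher and 0 to 19 lower, and both differences between conditions stayed at 0. For the 58 T0 calls tested in the naive set, 4 were called in the same direction and 28 in the opposite one, against 10 and 23 with library size and 6 and 33 with only the 4 naive eIF4A libraries. With 1 T0 library left out, most of the 10 IDs lower in the main fit lost their call, and the IDs called lower were mostly others. The direction of the 4 named IDs was reversed in none of these fits. With 1 library left out, ENSG00000063177.11 gave -1.79 to -0.72, and the call of ENSG00000055950.15 was lost in all 4 fits (edgeR adjusted p 0.0668 to 0.19). Protein-coding IDs alone and medians of gene lists were not run, since no table gives gene types or names.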
